A study of Homo sapiens with 24 samples.

Results

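Immediate early genes were examined in U937 cells, human cells of the monocyte lineage kept as an established line. They comprised 10 of the 55773 gene names measured, and all 10 were among the 20147 names that passed a filter on low counts. The 10 genes were chosen by name: the EGR factors EGR1, EGR2 and EGR3, the AP-1 factors and relatives FOS, FOSB, JUN, JUNB and ATF3, the nuclear protein gene IER2, and the phosphatase gene DUSP1. The choice was made with their levels in all 8 groups known, so the members' levels and differences are given as a description, without a test. The study perturbed enzymes that place methyl groups on histone H3 at lysine 9, where the mark goes with gene silencing. G9a, encoded by EHMT2, works with its partner GLP and mainly makes the dimethyl form of the mark, and SUV39H1 mainly makes the trimethyl form.

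The 24 RNA-seq libraries came from this 1 cell line and formed 8 groups of 3. The inhibitor arm held cells given DMSO alone and cells given UNC0638, which blocks G9a and GLP catalysis, at 2 or 4 µM, harvested after 3 days. The hairpin arm held cells with hairpin 2 or 3 against G9a, hairpin 2 or 4 against SUV39H1, or a scrambled hairpin. Hairpins against G9a and SUV39H1 were brought in by lentivirus and selected with puromycin for 3 days. The labels give no harvest time for DMSO cells, no selection for scrambled cells, and nothing on whether replicates were separate cultures, so the spread between replicates may be technical. Levels are CPM, counts scaled to a fixed library total, ± SD with n = 3 libraries a group. Differences are log2 fold changes ± SE from 1 edgeR fit with scaling factors, and adjusted p-values are by its quasi-likelihood test with the Benjamini-Hochberg method over all genes tested.

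Immediate early genes are transcribed within minutes of a growth factor, a cytokine or a stress, without new protein synthesis, because the factors that switch them on already sit at their promoters. Signalling by kinases of the MAPK family leads to phosphorylation of SRF-bound ELK factors and of CREB, which act through CArG boxes and cAMP elements. The EGR and AP-1 proteins made then drive a later wave of genes, while DUSP1 and related phosphatases switch the kinases off. In the monocyte lineage EGR1, EGR2 and AP-1 factors are known for their part in differentiation towards macrophages.

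The promoters of 9 members were found in RefSeq (build GRCh38.p14), with 12 start sites among them, and motifs were searched on both strands in the 250 bases before each start. The EGR1 and FOS promoters are shown because this pair differed from scrambled in opposite directions in the hairpin arm, and 30 bases of an EGR2 promoter because they carry a motif that it shares with EGR1. Capitals in the EGR1 promoter (chr5:138465229-138465478, plus strand) mark 2 CArG boxes, CCATATTAGG and CCATATATGG, and an EGR-type GCGNGGGCG motif. Capitals in the EGR2 stretch (chr10:62816418-62816447, minus strand) mark its CArG box. Capitals in the FOS promoter (chr14:75278578-75278827, plus strand) mark the cAMP half-site TGACG and the TATA box.
EGR1: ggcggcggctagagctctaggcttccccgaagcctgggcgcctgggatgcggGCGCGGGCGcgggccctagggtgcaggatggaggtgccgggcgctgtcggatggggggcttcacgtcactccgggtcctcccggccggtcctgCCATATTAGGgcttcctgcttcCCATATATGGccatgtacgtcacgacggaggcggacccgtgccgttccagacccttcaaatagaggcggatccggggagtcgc
EGR2: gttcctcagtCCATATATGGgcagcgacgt
FOS: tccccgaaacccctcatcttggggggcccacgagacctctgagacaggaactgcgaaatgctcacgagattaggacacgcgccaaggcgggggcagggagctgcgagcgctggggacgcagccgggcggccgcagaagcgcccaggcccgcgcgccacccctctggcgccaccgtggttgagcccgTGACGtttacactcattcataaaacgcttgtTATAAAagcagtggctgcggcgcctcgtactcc

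Counted by promoter, CArG boxes stood in 2 of the 12 member promoters, those of EGR1 and EGR2, against 1.16% of the 35116 promoters in the table. The TATAAA motif stood in 5 of the 12, in ATF3, DUSP1, FOS, FOSB and JUNB, against 10.7% of all promoters. TGACG stood in 8 of the 12, in 8 genes with ATF3 the exception, against 21.2%. The longer TGACGTCA, which contains TGACG, stood in 1 of the 12, in DUSP1, against 1.65% of all promoters. GCGNGGGCG stood in 1, in EGR1, against 8.41%, GGGCGG in 8 of the 12, against 42.6%, and the AP-1 motif TGANTCA in none of these windows, against 6.57%. The genes were also short: on hg19 the median span was 4160 bases for the 10 members and 17518 bases for all genes tested, and 8 of 10 members (80%) spanned at most 7500 bases, against 34.1% of all genes tested. Bases further upstream were not searched, so a motif not found here, such as a CArG box for FOS, may still lie there. Matches to a motif are a description of the letters and show no binding.

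Each library held 31545854 to 53803704 counts. EHMT2 averaged 72.6 ± 2.70 CPM with G9a hairpin 2 and 71.6 ± 3.51 CPM with hairpin 3, against 140 ± 8.75 CPM with the scrambled hairpin, and SUV39H1 averaged 19.3 ± 0.404 and 22.4 ± 1.85 CPM with SUV39H1 hairpins 2 and 4, against 56.5 ± 1.52 CPM. EHMT2 was also lower with SUV39H1 hairpin 2 (-0.41 ± 0.06, edgeR quasi-likelihood adjusted p = 3.82e-06). With SUV39H1 hairpin 4 EHMT2 averaged 136 ± 2.22 CPM, its libraries overlapped those of scrambled cells, and the scaling factors moved this comparison by 0.13, nearly the size of the fitted difference (-0.16 ± 0.06, adjusted p = 0.0295). Of 8 myeloid markers, 7 had a median of at least 1 CPM, among them SPI1, CD33 and LYZ, and MPO had a median of 0.872 CPM. The summed level of the 8 ranged from 4750 to 4816 CPM with SUV39H1 hairpin 2, from 3096 to 3102 CPM with SUV39H1 hairpin 4, from 2108 to 2126 CPM with G9a hairpin 2, from 2155 to 2217 CPM with G9a hairpin 3 and from 1651 to 1727 CPM in scrambled cells. It was 1824 to 2079 CPM in DMSO cells, 1734 to 1816 CPM at 2 µM and 1754 to 1877 CPM at 4 µM. Over all libraries LYZ ranged from 265 to 2594 CPM and ITGB2 from 664 to 1427 CPM. PTPRC ranged from 132 to 389 CPM, SPI1 from 120.1 to 168.2 CPM and CD33 from 85.1 to 120.8 CPM. The sum thus rests mostly on LYZ and ITGB2 and does not show that all markers rose. The summed level of 5 T and B cell markers ranged from 7.15 to 8.38 CPM with the G9a hairpins, from 15.3 to 22.9 CPM with the SUV39H1 hairpins and from 20.1 to 23.7 CPM in scrambled cells, and it was 28.5 to 33.4 CPM in DMSO cells, 21.3 to 23.3 CPM at 2 µM and 19.4 to 21.6 CPM at 4 µM. The part of these shifts in the levels of the immediate early genes was not tested. Of these markers CD3E, CD3D and MS4A1 were at or near 0, while CD79A (median 14.9 CPM) was detected. Per kilobase of gene model, JUNB (48.3 CPM per kb), JUN (46.5) and IER2 (34.0) were the most abundant members in DMSO cells, EGR1 (16.3), FOS (6.62), DUSP1 (4.97) and ATF3 (2.07) stood between, and FOSB (0.780), EGR2 (0.363) and EGR3 (0.144) were the scarcest.

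**Figure D1:**
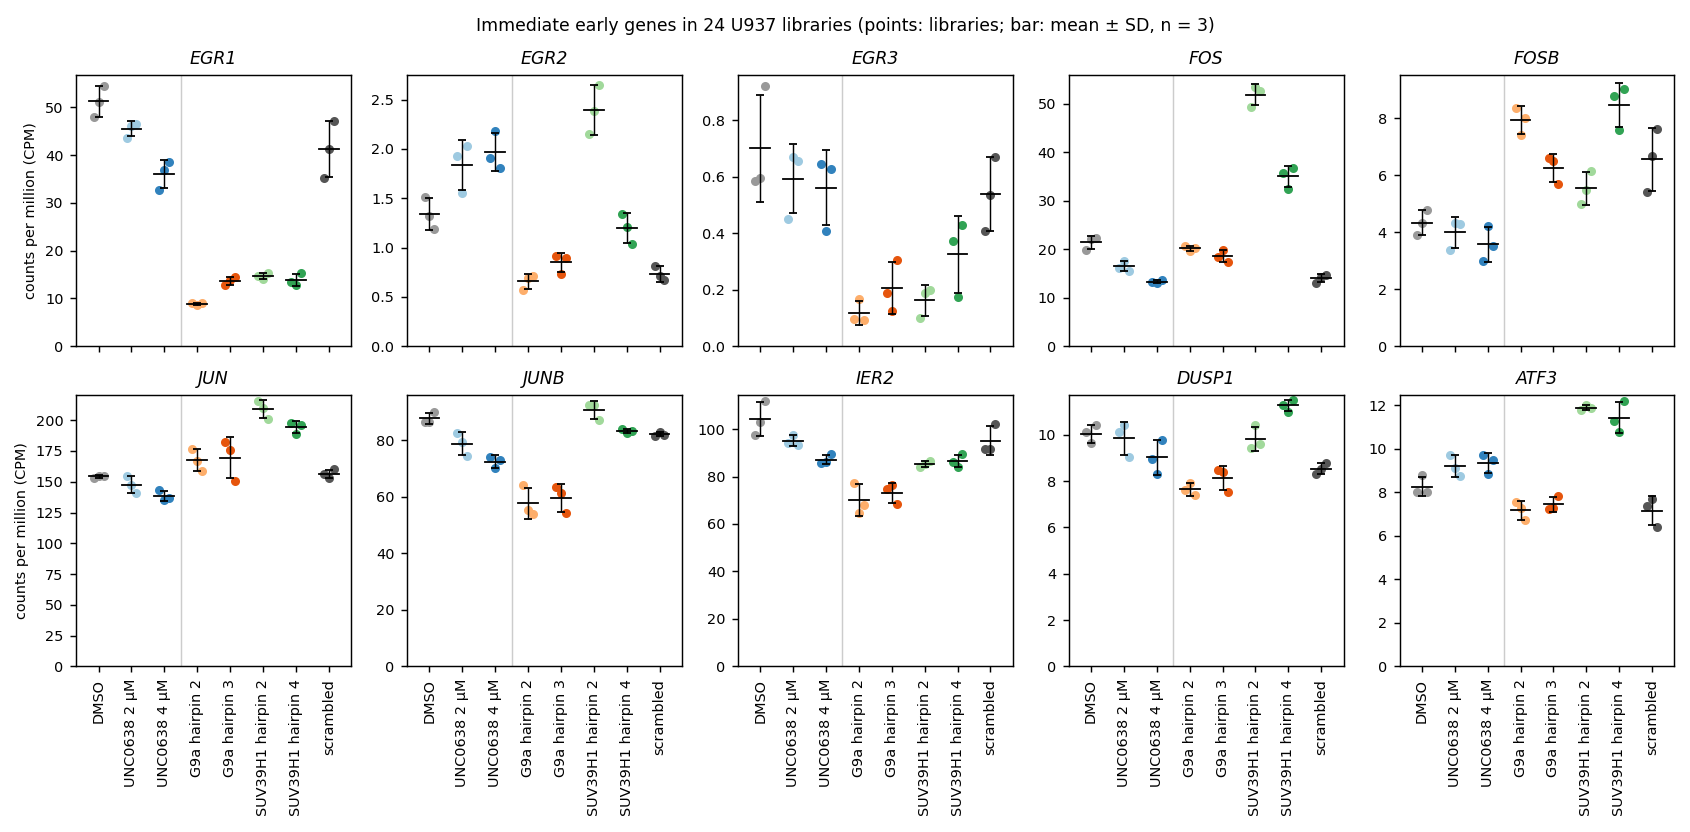
Level of each member in CPM (vertical axes, linear, from 0) in every library, by group (horizontal axis, inhibitor arm left of the grey line and hairpin arm right of it). Points are libraries and bars the mean ± SD of 3; EGR1 lies between 8.56 and 15.3 CPM in all 12 libraries with a G9a or SUV39H1 hairpin and between 32.7 and 54.6 CPM in the other 12.

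EGR1, a zinc-finger transcription factor (chromosome 5, 137801179 to 137805004, plus strand, hg19), was the member with the lowest level relative to its control in cells with G9a hairpins. It stood at 8.98, 8.56 and 9.01 CPM with G9a hairpin 2 and at 12.8, 13.9 and 14.5 CPM with G9a hairpin 3. With SUV39H1 hairpin 2 it stood at 14.8, 14.1 and 15.3 CPM and with hairpin 4 at 13.5, 12.8 and 15.3 CPM, against 35.3, 41.4 and 47.2 CPM in scrambled cells. Every library with a targeting hairpin lay below every scrambled library, and the scrambled libraries were the most spread of the 8 groups, with a coefficient of variation of 14.4%. The differences from scrambled were -2.25 ± 0.09 for G9a hairpin 2, -1.60 ± 0.09 for G9a hairpin 3, -1.58 ± 0.09 for SUV39H1 hairpin 2 and -1.71 ± 0.08 for SUV39H1 hairpin 4. These 4 differences share the scrambled libraries. Libraries without overlap were common over all genes tested, at 52.5% and 52.1% of genes for G9a hairpins 2 and 3 and 71.4% and 67.6% for SUV39H1 hairpins 2 and 4 against scrambled, so nothing is read from the lack of overlap in a member. In bulk RNA, fewer cells with the transcript and less transcript per cell cannot be told apart.

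EGR1 was also lower in cells given the inhibitor. It measured 48.1, 51.1 and 54.6 CPM in DMSO cells, 43.7, 46.2 and 46.6 CPM at 2 µM UNC0638 and 32.7, 37.0 and 38.5 CPM at 4 µM. The 3 groups did not overlap, and the level was lower at each higher dose. Over all genes 19.9% at 2 µM and 28.8% at 4 µM had no overlap with DMSO, and 16.7% none between the doses. The difference from DMSO was -0.17 ± 0.08 at 2 µM and -0.50 ± 0.08 at 4 µM, both against the same DMSO libraries, and that between the doses was -0.33 ± 0.08. Over the 8 groups EGR1 was ordered as DMSO, 2 µM UNC0638, scrambled, 4 µM UNC0638, SUV39H1 hairpin 2, SUV39H1 hairpin 4, G9a hairpin 3 and G9a hairpin 2. In that order the libraries of scrambled cells overlapped those of both UNC0638 neighbours, and SUV39H1 hairpin 2, SUV39H1 hairpin 4 and G9a hairpin 3 overlapped their neighbours among themselves. DMSO, G9a hairpin 2 and the step from 4 µM UNC0638 to SUV39H1 hairpin 2 were separated from their neighbours.

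Between the 2 G9a hairpins EHMT2 differed by 0.01 ± 0.07, and EGR1 differed by more. It averaged 8.85 ± 0.253 CPM with hairpin 2 and 13.7 ± 0.844 CPM with hairpin 3, a difference of -0.65 ± 0.10, and the 3 libraries of each hairpin did not overlap. EGR1 was 1 of 2 genes of 20147 (0.00993%, with 0.00496% higher and 0.00496% lower) called between these hairpins at an adjusted p under 0.05. EGR1 was chosen with this comparison in view, so its call restates the choice and nothing is read from it. The other called gene, named after its values were seen, was the heat shock gene HSPA6, which averaged 5.95 ± 0.107 CPM with hairpin 2 and 4.22 ± 0.550 CPM with hairpin 3 (0.49 ± 0.08, edgeR quasi-likelihood adjusted p = 0.0099), and which may share reads with near-identical HSP70 family copies. The EGR1 call ended without G9a hairpin 2 replicate 1 (-0.66), 2 (-0.62) or 3 (-0.66) and without hairpin 3 replicate 3 (-0.60), while its difference stayed between -0.70 and -0.60 in all 12 alternative settings. No gene was called in those 4 settings, so the HSPA6 call ended there too. It also ended with the compared libraries alone and without hairpin 3 replicate 1, where EGR1 was the only gene called. The other 9 members were not called between these hairpins. EGR2 (-0.38 ± 0.18) and FOSB (0.33 ± 0.11) had libraries that did not overlap, as did 9.47% of all genes, and EGR3 (-0.79 ± 0.49) had libraries that did.

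**Figure D2:**
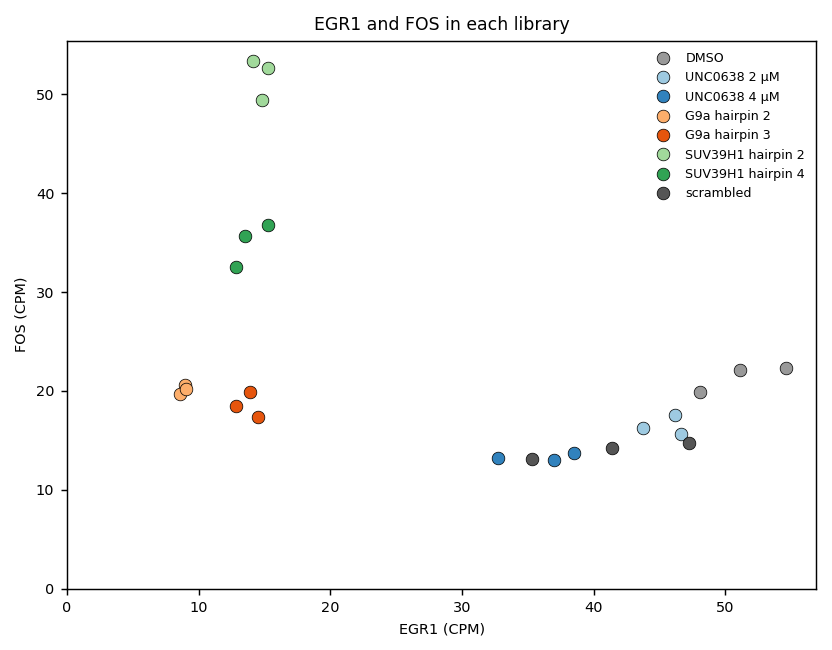
EGR1 (horizontal axis, CPM) against FOS (vertical axis, CPM) in each of 24 libraries, coloured by group, both axes linear from 0. Libraries with SUV39H1 hairpins lie at 32.5 to 53.4 CPM of FOS and 12.8 to 15.3 CPM of EGR1, and scrambled libraries at 13.1 to 14.7 CPM of FOS and 35.3 to 47.2 CPM of EGR1.

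EGR2, the relative of EGR1 that shares its CArG box sequence (chromosome 10, 64571756 to 64679660, minus strand, hg19), stood on the other side of its control in several groups. It measured 2.15, 2.38 and 2.65 CPM with SUV39H1 hairpin 2 and 1.34, 1.21 and 1.04 CPM with SUV39H1 hairpin 4, against 0.818, 0.709 and 0.670 CPM in scrambled cells. All 6 SUV39H1 hairpin libraries lay above the 3 scrambled libraries, by 1.63 ± 0.15 with hairpin 2 and 0.60 ± 0.16 with hairpin 4. The hairpins differed from each other by 1.03 ± 0.13 without overlap, as 56.3% of all genes did. With G9a hairpins 2 and 3 EGR2 averaged 0.657 ± 0.0773 and 0.850 ± 0.0995 CPM, and its differences from scrambled were -0.16 ± 0.19 and 0.22 ± 0.18, with overlapping libraries. In the inhibitor arm it measured 1.51, 1.32 and 1.19 CPM in DMSO cells, 1.93, 1.55 and 2.03 CPM at 2 µM and 1.91, 2.18 and 1.81 CPM at 4 µM. Both doses lay above DMSO in every library, by 0.47 ± 0.13 and 0.56 ± 0.13, and overlapped each other.

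EGR3, the third factor (chromosome 8, 22545172 to 22550815, minus strand, hg19), rested on few reads, 4 to 44 counts a library. It averaged 0.119 ± 0.0424 CPM with G9a hairpin 2 and 0.206 ± 0.0927 CPM with G9a hairpin 3. With SUV39H1 hairpins 2 and 4 it averaged 0.163 ± 0.0552 and 0.325 ± 0.135 CPM, against 0.538 ± 0.131 CPM in scrambled cells. The differences were -2.16 ± 0.39, -1.38 ± 0.35, -1.83 ± 0.38 and -0.87 ± 0.30, in the same order, and only SUV39H1 hairpin 4 overlapped the scrambled libraries. In the inhibitor arm the 3 groups overlapped, with differences from DMSO of -0.26 ± 0.26 at 2 µM and -0.33 ± 0.25 at 4 µM. An antisense gene, RP11-459E5.1, overlaps EGR3 and held 270 counts over the 24 libraries, against 422 for EGR3. The library kit does not mark strand, so reads in the stretch that the 2 genes share cannot be told apart. RP11-459E5.1 itself fell with G9a hairpins 2 and 3, by 1.21 ± 0.43 and 1.26 ± 0.44 (edgeR quasi-likelihood adjusted p = 0.0249 and 0.0218). With SUV39H1 hairpins 2 and 4 it did not fall, with differences of 0.03 ± 0.36 and 0.55 ± 0.31, not called. Its part in the EGR3 level was not tested.

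FOS, which pairs with JUN proteins to form the AP-1 factor (chromosome 14, 75745477 to 75748933, plus strand, hg19), had its highest levels in cells with SUV39H1 hairpins. It measured 49.4, 53.4 and 52.7 CPM with SUV39H1 hairpin 2 and 35.7, 32.5 and 36.8 CPM with SUV39H1 hairpin 4. With G9a hairpin 2 it measured 20.6, 19.7 and 20.2 CPM and with G9a hairpin 3 it measured 18.5, 19.9 and 17.4 CPM, against 13.1, 14.2 and 14.7 CPM in scrambled cells. All 12 libraries with a targeting hairpin lay above all 3 scrambled libraries, the opposite of EGR1. The differences were 1.79 ± 0.06 for SUV39H1 hairpin 2, 1.19 ± 0.06 for SUV39H1 hairpin 4, 0.50 ± 0.06 for G9a hairpin 2 and 0.39 ± 0.07 for G9a hairpin 3. The SUV39H1 hairpins differed from each other by 0.60 ± 0.06 with no overlap, and the G9a hairpins by 0.10 ± 0.06 with overlap.

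In the inhibitor arm FOS lay on the same side as EGR1. It measured 19.9, 22.1 and 22.3 CPM in DMSO cells, 16.2, 17.6 and 15.6 CPM at 2 µM UNC0638 and 13.2, 13 and 13.7 CPM at 4 µM. The 3 groups did not overlap. The difference from DMSO was -0.38 ± 0.06 at 2 µM and -0.68 ± 0.06 at 4 µM. FOS was thus lower with the inhibitor of G9a and GLP and higher with the G9a hairpins, each against its own control, and the difference between the arms was not tested. Over the 8 groups the order was SUV39H1 hairpin 2, SUV39H1 hairpin 4, DMSO, G9a hairpin 2, G9a hairpin 3, 2 µM UNC0638, scrambled and 4 µM UNC0638. DMSO and the G9a hairpins overlapped their neighbours from DMSO down to 2 µM UNC0638, scrambled and 4 µM UNC0638 overlapped, and the other steps were separated.

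FOSB, a partner of JUN like FOS (chromosome 19, 45971253 to 45978437, plus strand, hg19), did not follow FOS. It averaged 5.53 ± 0.569 CPM with SUV39H1 hairpin 2 and 8.46 ± 0.758 CPM with SUV39H1 hairpin 4. With G9a hairpins 2 and 3 it averaged 7.93 ± 0.487 and 6.25 ± 0.503 CPM, against 6.56 ± 1.11 CPM in scrambled cells. All 4 groups overlapped the scrambled libraries, and the 2 SUV39H1 hairpins did not overlap each other, with a difference of -0.57 ± 0.12. In the inhibitor arm the means were 4.33 ± 0.441 CPM in DMSO cells, 4.00 ± 0.550 CPM at 2 µM and 3.57 ± 0.623 CPM at 4 µM, with overlap. The antisense gene ERCC1 spans FOSB and held 86523 counts over the 24 libraries, against 6089 for FOSB. ERCC1 itself differed by -0.28 ± 0.04 and -0.38 ± 0.04 with SUV39H1 hairpins 2 and 4 against the scrambled hairpin, and its part in the FOSB level was not tested.

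JUN and JUNB, the AP-1 subunits that FOS proteins bind, spanned narrower ranges. JUN (chromosome 1, 59246465 to 59249785, minus strand, hg19) measured 216, 210 and 201 CPM with SUV39H1 hairpin 2 and 198, 189 and 196 CPM with SUV39H1 hairpin 4, against 156, 153 and 160 CPM in scrambled cells. Both lay above scrambled without overlap, by 0.33 ± 0.05 and 0.19 ± 0.05, the last being 0.32 on library totals alone. With G9a hairpins 2 and 3 JUN averaged 168 ± 8.998 and 170 ± 16.4 CPM and overlapped scrambled. From DMSO to 4 µM the inhibitor arm had 154 ± 0.814, 148 ± 7.39 and 139 ± 4.22 CPM, and only the 4 µM libraries lay wholly below DMSO (-0.15 ± 0.05).

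JUNB (chromosome 19, 12902310 to 12904124, plus strand, hg19), a JUN relative that often counters it, was lowest with the G9a hairpins. It measured 64.0, 55.2 and 53.8 CPM with G9a hairpin 2 and 63.4, 61.5 and 54.1 CPM with G9a hairpin 3, against 81.6, 83.0 and 81.8 CPM in scrambled cells. Both hairpins lay below scrambled in every library, by -0.53 ± 0.06 and -0.47 ± 0.06. With SUV39H1 hairpin 2 it averaged 90.7 ± 3.25 CPM, above the scrambled mean of 82.1 ± 0.742 CPM without overlap (0.05 ± 0.05, and 0.14 on library totals alone). With SUV39H1 hairpin 4 it averaged 83.3 ± 0.720 CPM and overlapped scrambled. Here the fitted difference, -0.11 ± 0.05, has the opposite sign to the CPM because the fit uses scaling factors, and it was 0.02 when only library totals were used, an alternative chosen after the data were seen that moves the median of all genes by 0.13 in this comparison and by 0.09 for SUV39H1 hairpin 2. The inhibitor arm gave 87.7 ± 2.02 CPM in DMSO cells, 78.8 ± 4.12 CPM at 2 µM and 72.4 ± 2.22 CPM at 4 µM, with no overlap between the groups. The antisense gene HOOK2 overlaps JUNB and held 31147 counts, against 79011 for JUNB. HOOK2 differed from scrambled by -0.06 ± 0.06 and -0.05 ± 0.06 with G9a hairpins 2 and 3 and by 0.25 ± 0.06 and 0.34 ± 0.06 with SUV39H1 hairpins 2 and 4, and its part in the JUNB level was not tested.

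ATF3, a bZIP factor switched on by stress and by Toll-like receptor signals (chromosome 1, 212738676 to 212794119, plus strand, hg19), was higher with both SUV39H1 hairpins. It measured 11.8, 12.0 and 11.9 CPM with SUV39H1 hairpin 2 and 11.3, 10.8 and 12.2 CPM with SUV39H1 hairpin 4, against 7.36, 7.72 and 6.41 CPM in scrambled cells. Neither hairpin overlapped scrambled, and the differences were 0.64 ± 0.07 and 0.54 ± 0.07. G9a hairpins 2 and 3, at 7.19 ± 0.437 and 7.46 ± 0.332 CPM, overlapped scrambled. The inhibitor arm ran from 8.27 ± 0.454 CPM in DMSO cells to 9.21 ± 0.502 CPM at 2 µM and 9.37 ± 0.453 CPM at 4 µM, and the 4 µM libraries lay above DMSO by 0.19 ± 0.07.

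IER2, a nuclear protein of the same rapid response (chromosome 19, 13261229 to 13265722, plus strand, hg19), was lower than its arm's control at both doses and with all 4 hairpins. It measured 77.4, 64.5 and 68.1 CPM with G9a hairpin 2 and 74.7, 76.5 and 68.4 CPM with G9a hairpin 3, against 91.5, 91.7 and 102 CPM in scrambled cells. SUV39H1 hairpins 2 and 4 gave 85.2 ± 1.31 and 86.5 ± 2.67 CPM. All 12 libraries with a targeting hairpin lay below scrambled, by -0.46 ± 0.06, -0.39 ± 0.06, -0.25 ± 0.06 and -0.27 ± 0.06 for G9a hairpins 2 and 3 and SUV39H1 hairpins 2 and 4. On library totals alone the SUV39H1 differences were -0.16 and -0.14, still called. In the inhibitor arm it averaged 104 ± 7.30 CPM in DMSO cells, 95.1 ± 2.25 CPM at 2 µM and 87.1 ± 1.98 CPM at 4 µM. These groups did not overlap, although the highest 2 µM and the lowest DMSO library were both at 97.6 CPM after rounding. The antisense gene CTC-250I14.6, which overlaps IER2, had 36473 counts against 90087. It differed much as IER2 did, by -0.50 ± 0.07 and -0.42 ± 0.07 with G9a hairpins 2 and 3. Without strand, reads in the stretch that the 2 genes share cannot be told apart.

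DUSP1, the phosphatase that switches off p38 and JNK kinases (chromosome 5, 172195093 to 172198198, minus strand, hg19), spanned the narrowest range of group means, with its highest 1.47 times its lowest. It measured 11.3, 11.0 and 11.5 CPM with SUV39H1 hairpin 4, against 8.29, 8.54 and 8.78 CPM in scrambled cells, and lay above them by 0.26 ± 0.06. SUV39H1 hairpin 2, at 9.82 ± 0.533 CPM, also lay above scrambled without overlap (0.11 ± 0.07, and 0.20 on library totals alone). G9a hairpin 2, at 7.64 ± 0.263 CPM, lay below it (-0.18 ± 0.07), and G9a hairpin 3, at 8.14 ± 0.508 CPM, overlapped it. DMSO, 2 µM and 4 µM libraries overlapped, at 10.0 ± 0.381, 9.84 ± 0.729 and 9.02 ± 0.736 CPM.

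**Figure D3:**
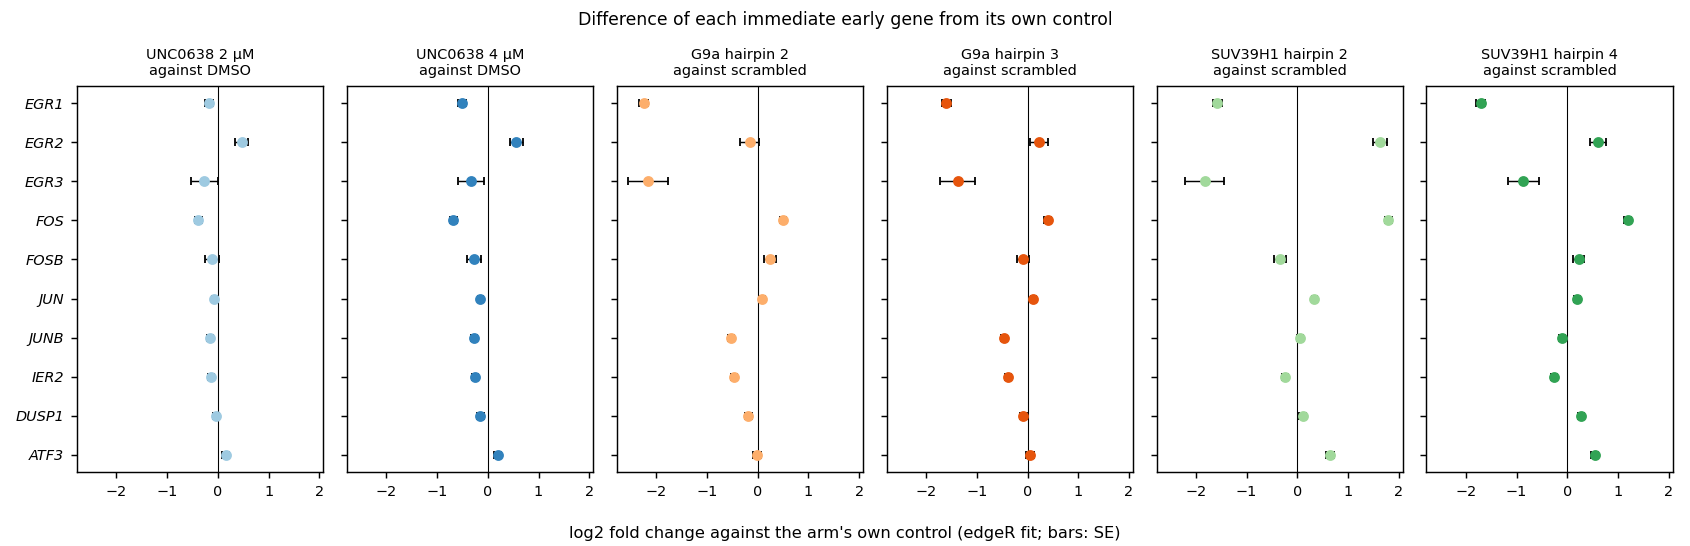
Log2 fold change of each member (rows) against its arm's own control in 6 comparisons (panels), from the edgeR fit, with bars of 1 SE. EGR1 lies between -2.25 and -1.58 in all 4 hairpin panels, and FOS lies left of 0 in both inhibitor panels (-0.38 and -0.68) and right of 0 in the hairpin panels (0.39 to 1.79).

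Counted at an adjusted p under 0.05 over all genes, and with nothing read from the counts because the members were chosen with these comparisons known, the members called were as follows. At 4 µM UNC0638 2 members were higher and 5 lower than in DMSO cells, where 19.9% of all genes were called. The higher ones were EGR2 and ATF3 and the lower ones EGR1, FOS, JUN, JUNB and IER2. The JUN call ended without DMSO replicate 2 (-0.15) or 3 (-0.14) or 4 µM replicate 2 (-0.13) or 3 (-0.14), and the ATF3 call without DMSO replicate 1 (0.17) or 3 (0.18) or 4 µM replicate 1 (0.17) or 3 (0.18). The JUN call also ended with the compared libraries alone, and the ATF3 call with DESeq2, the compared libraries alone, library totals or no low-count filter, 8 of 12 alternatives in all, while DUSP1 was called without 4 µM replicate 3 (-0.22). At 2 µM only EGR2, higher, and FOS, lower, were called, where 7.17% of all genes were, 3.83% higher and 3.34% lower. Same-numbered libraries deviated together in this comparison, and with the replicate block 4 members were called, EGR1 (-0.17) and JUNB (-0.16) in addition, as also without the low-count filter. The EGR2 call ended without DMSO replicate 2 (0.46) or 3 (0.38) or 2 µM replicate 1 (0.44) or 3 (0.38), with DESeq2 (0.46) and with the compared libraries alone (0.47), and IER2 was called without DMSO replicate 1 (-0.19). Between the doses EGR1 and FOS were called lower at 4 µM, where 1.84% of all genes were called, 1.39% higher and 0.452% lower. The EGR1 call ended without 2 µM replicate 2 (-0.31) or 3 (-0.31) or 4 µM replicate 1 (-0.26) or 2 (-0.34), and the FOS call without 2 µM replicate 2 (-0.24) or 4 µM replicate 1 (-0.29) or 2 (-0.28).

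In the hairpin arm larger shares of all genes were called. With G9a hairpin 2 FOS was called higher and EGR1, EGR3, JUNB, IER2 and DUSP1 lower, where 44.4% of all genes were called, and with G9a hairpin 3 the list was the same but for DUSP1, at 44.7%. The DUSP1 call ended without G9a hairpin 2 replicate 1 (-0.18) or 3 (-0.16) or scrambled replicate 2 (-0.18) or 3 (-0.17), on library totals (-0.16) and without the low-count filter (-0.17). FOSB was called for hairpin 2 without scrambled replicate 3 (0.35), with the compared libraries alone (0.24) and without the filter (0.25), and JUN for hairpin 3 without its replicate 3 (0.19). With SUV39H1 hairpin 2 EGR2, FOS, JUN and ATF3 were called higher and EGR1, EGR3, FOSB and IER2 lower, where 67.1% of all genes were called. With SUV39H1 hairpin 4 EGR2, FOS, JUN, DUSP1 and ATF3 were called higher and EGR1, EGR3 and IER2 lower, at 60.9%. The FOSB call of hairpin 2 ended without its replicate 1 (-0.28) or scrambled replicate 3 (-0.24) and on library totals (-0.26), and the EGR3 call of hairpin 4 without its replicate 2 (-0.57) or scrambled replicate 3 (-0.70) and with DESeq2 (-0.89). On library totals JUNB and DUSP1 were called higher with hairpin 2. For hairpin 4, where same-numbered libraries deviated together, FOSB (0.24) and JUNB (-0.11) were called as well with the replicate block, FOSB also without hairpin 4 replicate 2 (0.31) or scrambled replicate 3 (0.34), on library totals (0.36) and without the low-count filter (0.24), and JUNB also with DESeq2 (-0.13), RLE scaling (-0.13) and the compared libraries alone (-0.12).

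The SUV39H1 hairpins themselves differed in 42.9% of all genes, with 20.9% higher and 22% lower. EGR2, FOS, JUN and JUNB were called higher and FOSB and DUSP1 lower with hairpin 2 than with hairpin 4, while EGR1 (0.13 ± 0.09), EGR3 (-0.96 ± 0.42), IER2 (0.02 ± 0.06) and ATF3 (0.10 ± 0.07) were not called. The JUN call (0.14 ± 0.05) ended without hairpin 2 replicate 1 (0.12) or 2 (0.13) or hairpin 4 replicate 1 (0.14), 2 (0.10) or 3 (0.14), and on library totals (0.10) or without the low-count filter (0.11). The JUNB call (0.16 ± 0.05) ended without the same libraries, at 0.15, 0.14, 0.15, 0.14 and 0.15, and in the same other settings (0.12 and 0.13). The DUSP1 call (-0.16 ± 0.06) ended without hairpin 2 replicate 1 (-0.13) or 3 (-0.14) or hairpin 4 replicate 1 (-0.17) or 3 (-0.15) and with DESeq2 or RLE scaling (-0.15 each). EGR3 was called without hairpin 4 replicate 2 (-1.27), with the replicate block (-0.99) and without the filter. The 2 control groups also differed: scrambled cells against DMSO cells had 31.4% of all genes called, with FOSB higher (0.64 ± 0.12) and EGR1 (-0.28 ± 0.08), EGR2 (-0.85 ± 0.16), FOS (-0.58 ± 0.06) and DUSP1 (-0.21 ± 0.07) lower. The EGR1 call ended without scrambled replicate 1 (-0.19) and with the compared libraries alone (-0.28). The DUSP1 call ended without DMSO replicate 3 (-0.18) or scrambled replicate 1 (-0.19) or 2 (-0.21), with DESeq2 (-0.19) and with the compared libraries alone (-0.20), and ATF3 was called without scrambled replicate 2 (-0.23) and on library totals (-0.20). The orders of EGR1 and FOS over all 8 groups set levels of both arms side by side as a description only, since the controls themselves differ.

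Immediate early genes outside the 10 were examined in a list of 40, of which 35 were tested. With SUV39H1 hairpin 2, 26 of the 35 rose and 3 fell, with a median of 0.67, where 34.5% of all genes were called higher and 32.6% lower and the median of all genes was 0.02. BTG2, an antiproliferative gene, rose to 41.8 ± 0.863 CPM with this hairpin, against 9.22 ± 0.263 CPM in scrambled cells (2.09 ± 0.05, edgeR quasi-likelihood adjusted p = 1.65e-22). MYC, a growth-promoting factor, fell by 1.71 ± 0.04 (adjusted p = 9.46e-22), and the other 2 that fell, named after their values were seen, were MCL1 and F3. With SUV39H1 hairpin 4, 23 rose and 4 fell, with a median of 0.34, where 31.8% of all genes were called higher and 29.2% lower. KLF10, a zinc-finger factor of the TGF-beta response, rose by 1.19 ± 0.05 (adjusted p = 8.03e-17), and MYC fell by 1.00 ± 0.04 (adjusted p = 1.66e-16). BTG2 was higher with hairpin 2 than with hairpin 4 by 1.41 ± 0.05 (adjusted p = 1.5e-18). The controls also differed in this list. In scrambled against DMSO cells 14 of the 35 were lower and 5 higher, with a median of -0.17. Of all genes 16.5% were called lower and 14.9% higher there. BTG2 was among the lower ones, at 9.22 CPM in scrambled and 15.5 CPM in DMSO cells (-0.72 ± 0.05, edgeR quasi-likelihood adjusted p = 6.66e-11).

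With the G9a hairpins the same list was divided. Hairpin 2 had 7 higher and 12 lower and hairpin 3 had 10 and 10, with medians of -0.08 and -0.06, where 22.1% and 22.6% of all genes were called higher and 22.3% and 22.1% lower. KLF10 rose by 0.83 ± 0.05 with hairpin 2 (adjusted p = 4.19e-13) and 0.87 ± 0.05 with hairpin 3 (adjusted p = 1.74e-13), and KLF6, another member of its family, by 0.65 ± 0.05 (adjusted p = 1.63e-11) and 0.68 ± 0.05 (adjusted p = 6.07e-12), all edgeR quasi-likelihood values. At 4 µM UNC0638 6 rose and 6 fell, with a median of -0.01, where 10.2% of all genes were called higher and 9.73% lower. At 2 µM 2 of the 35 rose and 1 fell, near the 3.83% of all genes called higher and 3.34% lower. SGK1, a kinase of the serum and glucocorticoid response, rose by 0.35 ± 0.04 at 2 µM (adjusted p = 7e-07) and 0.80 ± 0.04 at 4 µM (adjusted p = 2.24e-14), and KLF10 fell by 0.21 ± 0.05 at 2 µM (adjusted p = 0.00698).

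Other AP-1 and related bZIP factors gave 13 tested genes. FOSL2, a FOS relative, averaged 201 ± 1.59 CPM with SUV39H1 hairpin 2, 100 ± 1.42 CPM with SUV39H1 hairpin 4, 94.0 ± 3.82 CPM with G9a hairpin 2 and 96.5 ± 4.61 CPM with G9a hairpin 3, against 42.3 ± 1.77 CPM in scrambled cells. It rose by 2.16 ± 0.04, 1.12 ± 0.04, 1.13 ± 0.04 and 1.18 ± 0.04 (edgeR quasi-likelihood adjusted p = 3.04e-24, 1.46e-17, 3.17e-17 and 1.21e-17). FOSL2 was itself lower in scrambled than in DMSO cells (-0.67 ± 0.04, edgeR quasi-likelihood adjusted p = 4.79e-12). Of the 13 genes 5 were lower and 2 higher there, where 16.5% of all genes were called lower and 14.9% higher. In the list as a whole 7 rose and 4 fell with SUV39H1 hairpin 2, 8 and 4 with hairpin 4, 5 and 3 with G9a hairpin 2, 5 and 4 with G9a hairpin 3, 3 and 3 at 4 µM, and 1 and 1 at 2 µM. Of all genes 34.5% were called higher and 32.6% lower with SUV39H1 hairpin 2, 31.8% and 29.2% with hairpin 4, 22.1% and 22.3% with G9a hairpin 2, 22.6% and 22.1% with G9a hairpin 3, 10.2% and 9.73% at 4 µM, and 3.83% and 3.34% at 2 µM. The shares of the list that fell with both SUV39H1 hairpins and G9a hairpin 2 lay near those of all genes.

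Phosphatases of MAP kinases other than DUSP1, with the Sprouty and SPRED inhibitors of RAS signalling, gave 14 tested genes. With each G9a hairpin 2 of the 14 rose and 7 fell, where 22.1% and 22.6% of all genes were called higher and 22.3% and 22.1% lower with hairpins 2 and 3. SPRY2, which holds back receptor tyrosine kinase signals, fell by 0.63 ± 0.05 and 0.59 ± 0.05 with hairpins 2 and 3 (edgeR quasi-likelihood adjusted p = 2.86e-11 and 1.01e-10). The SUV39H1 hairpins gave 6 higher and 3 lower with hairpin 2, where 34.5% of all genes were higher and 32.6% lower, and 8 higher and 3 lower with hairpin 4, against 31.8% and 29.2%. DUSP4, a nuclear phosphatase of ERK, rose by 1.39 ± 0.05 with SUV39H1 hairpin 2 (adjusted p = 2.5e-18) and by 0.25 ± 0.05 and 0.41 ± 0.05 at 2 and 4 µM UNC0638 (adjusted p = 0.00217 and 1.14e-06). DUSP2 fell to 11.5 ± 0.603 and 16.9 ± 0.630 CPM with SUV39H1 hairpins 2 and 4, against 30.5 ± 1.38 CPM in scrambled cells (edgeR adjusted p = 7.99e-17 and 3.06e-13). At each dose of the inhibitor 2 rose, DUSP4 and, named after its values were seen, SPRED2, where 3.83% of all genes at 2 µM and 10.2% at 4 µM were called higher.

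Upstream of the members, 24 MAP kinase cascade genes and 17 factors and cofactors of immediate early promoters were tested. Of the cascade genes 6 rose and 12 fell with SUV39H1 hairpin 2, 3 and 6 with hairpin 4, 4 and 7 with G9a hairpin 2, 4 and 8 with G9a hairpin 3, and 1 and 4 at 4 µM. Of all genes 34.5% were called higher and 32.6% lower with SUV39H1 hairpin 2, 31.8% and 29.2% with hairpin 4, 22.1% and 22.3% with G9a hairpin 2, 22.6% and 22.1% with G9a hairpin 3, and 10.2% and 9.73% at 4 µM. In each of these comparisons the share of cascade genes that rose was below that of all genes, as was the share that fell with SUV39H1 hairpin 4. MAPK11, a p38 kinase, rose by 0.81 ± 0.10 and 0.89 ± 0.10 with G9a hairpins 2 and 3 (edgeR quasi-likelihood adjusted p = 1.15e-07 and 2.53e-08) and by 0.72 ± 0.10 at 4 µM (adjusted p = 4.86e-06). MAPK13, another p38 kinase, rose by 1.24 ± 0.07 and 0.93 ± 0.07 with SUV39H1 hairpins 2 and 4 (adjusted p = 1.68e-14 and 1.47e-11). Of the promoter factors 8 rose and 3 fell with SUV39H1 hairpin 2, 9 and 4 with hairpin 4, 5 and 4 with G9a hairpin 2, 7 and 4 with G9a hairpin 3, and 1 and 2 at 4 µM, and their shares that fell with the G9a hairpins and at 4 µM lay near those of all genes. ELK3, an SRF partner, rose by 0.72 ± 0.04 and 0.48 ± 0.04 with SUV39H1 hairpins 2 and 4 (adjusted p = 3.96e-14 and 2.48e-10), while ELK1, the classic MAPK target of that family, fell by 0.32 ± 0.04 and 0.30 ± 0.04 (adjusted p = 1.52e-08 and 8.7e-08).

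SRF also drives cytoskeletal genes, and 13 of these were tested. With G9a hairpins 2 and 3, 8 rose in each and 3 and 2 fell, with medians of 0.66 and 0.68, where 22.1% and 22.6% of all genes were called higher, 22.3% and 22.1% lower, and the median of all genes was 0.01 in both. TPM4, a tropomyosin, rose by 1.41 ± 0.03 with each (edgeR quasi-likelihood adjusted p = 1.27e-21 and 1.15e-21), and by 1.36 ± 0.03 with SUV39H1 hairpin 2 (adjusted p = 3.06e-22) and 0.40 ± 0.03 with hairpin 4 (adjusted p = 4.33e-11). The SUV39H1 hairpins gave 6 higher and 5 lower with hairpin 2, where 34.5% of all genes were higher and 32.6% lower, and 4 of each with hairpin 4, near the 31.8% and 29.2% of all genes. At 4 µM UNC0638 3 rose and 1 fell, where 10.2% of all genes were higher and 9.73% lower.

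Stress genes of the ATF4 branch, of which ATF3 is a known target, gave 9 tested genes. With G9a hairpin 2, 6 fell, and with G9a hairpin 3, 1 rose and 7 fell, where 22.3% and 22.1% of all genes were called lower. DDIT4, an inhibitor of mTOR signalling, fell to 11.2 ± 0.779 and 10.7 ± 0.328 CPM with G9a hairpins 2 and 3, against 22.2 ± 1.21 CPM in scrambled cells (edgeR quasi-likelihood adjusted p = 8.34e-13 and 3.11e-13). DDIT4 was itself lower in scrambled than in DMSO cells (-1.29 ± 0.06, edgeR quasi-likelihood adjusted p = 1.34e-15). Of the 9 genes 5 were lower and 1 higher there, where 16.5% of all genes were called lower and 14.9% higher. The SUV39H1 hairpins gave 5 higher and 4 lower with hairpin 2, where 34.5% of all genes were higher and 32.6% lower, and 6 higher and 2 lower with hairpin 4, against 31.8% and 29.2%, with DDIT4 higher by 1.47 ± 0.05 (adjusted p = 1.06e-17). ASNS, the asparagine synthetase, was lower with SUV39H1 hairpin 2 than with hairpin 4 by -1.57 ± 0.04 (adjusted p = 1.28e-20), whereas ATF3 differed between these hairpins by 0.10 ± 0.07. At 4 µM 3 fell, where 9.73% of all genes were called lower. Of 10 heat shock genes, whose HSPA1A and HSPA1B copies are near-identical and may share reads, 2 rose and 7 fell with SUV39H1 hairpin 2. With hairpin 4, 2 rose and 8 fell, with G9a hairpin 2, 2 and 6, and with G9a hairpin 3, 6 fell. Of all genes 32.6% and 29.2% were called lower with SUV39H1 hairpins 2 and 4 and 22.3% and 22.1% with the G9a hairpins. Called higher were 34.5%, 31.8%, 22.1% and 22.6%, in the same order. The controls differed here too, with 6 of the 10 higher and 0 lower in scrambled than in DMSO cells, where 14.9% of all genes were higher and 16.5% lower. At 4 µM 7 rose, where 10.2% of all genes were called higher, with HSPA8, a constitutive chaperone, higher by 0.26 ± 0.04 (adjusted p = 7.51e-06).

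**Figure D4:**
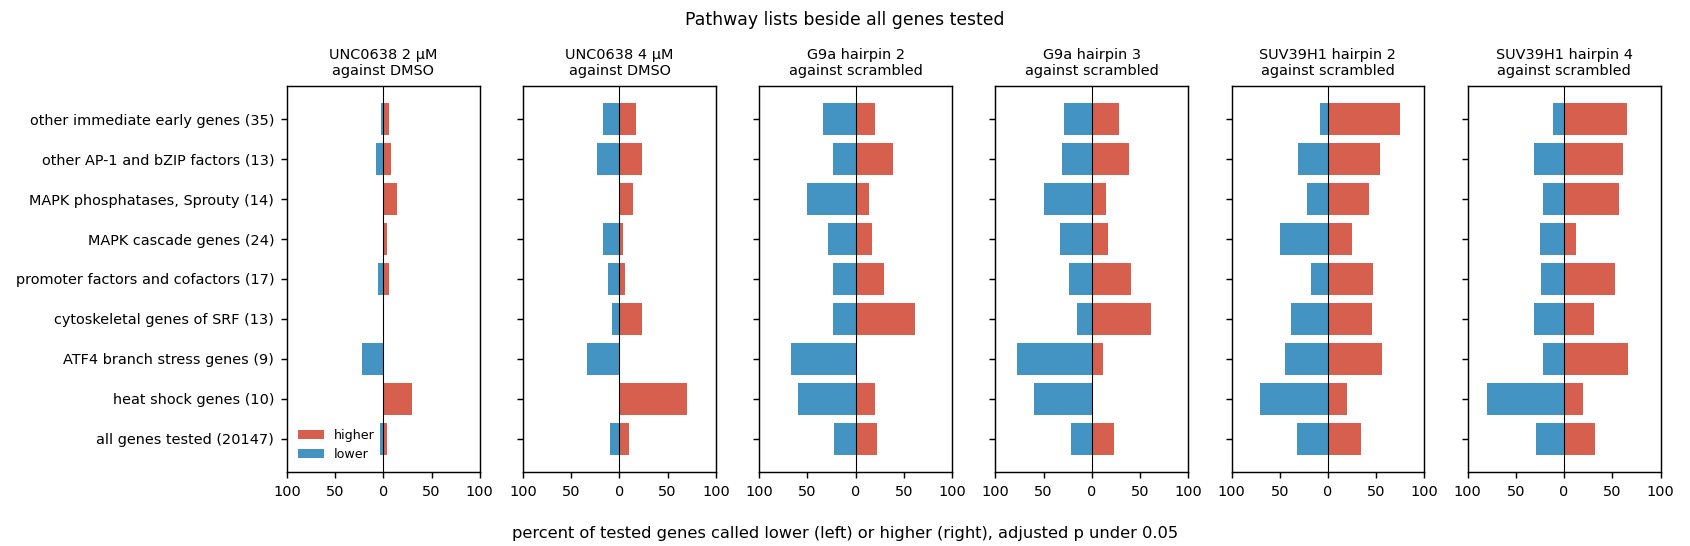
Share of tested genes called higher (right) or lower (left) at an adjusted p under 0.05, in percent, for each list (rows, with the number tested) beside all genes tested, in 6 comparisons (panels). Among the other immediate early genes 26 of 35 rose and 3 fell with SUV39H1 hairpin 2 (all genes: 34.5% and 32.6%). With G9a hairpin 2, 7 of 35 rose, near the share of all genes, and 12 fell (all genes: 22.1% and 22.3%).

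Over the 24 libraries, with each arm centred on its own mean of log2 CPM, the genes most like EGR1 among 11805 candidates were UNC119B (Pearson r = 0.95), JAGN1 (0.94), FDFT1 (0.94), CSPG4 (0.93) and MAP2K3 (0.93). These values are a description, since the libraries fall into groups and share their controls. CSPG4, a surface proteoglycan, averaged 4.05 ± 0.270 and 4.83 ± 0.216 CPM with G9a hairpins 2 and 3 and 4.58 ± 0.147 and 5.53 ± 0.336 CPM with SUV39H1 hairpins 2 and 4, against 11.5 ± 0.666 CPM in scrambled cells. It differed from EGR1 in the inhibitor arm, with 8.33 ± 0.409 CPM in DMSO cells and 8.64 ± 0.640 CPM at 4 µM. The likest genes to the 3 most abundant members were FAM43A for JUN (0.95), OAZ1 for JUNB (0.95) and FSTL3 for IER2 (0.93), and KLF4, itself an immediate early gene, came next for JUN (0.94).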

How the data were processed

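The authors deposited raw read counts per gene name for 24 RNA-seq libraries, with the summed length of each name's gene models, which was used only for CPM per kb. STAR, featureCounts and the build hg19 are named in the submitters' processing notes, and a version was not given in the sources used here. TruSeq RNA v2, the kit named in the labels, does not mark strand, so reads where genes overlap cannot be assigned by strand. Whether the counting kept such reads or left them out was not given in the sources used here. A table of repeat counts was not used here.

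CPM were computed on library totals. Counts were fitted with edgeR 4.0.16 (R 4.3.3) by the quasi-likelihood test, with TMM scaling, 1 mean per group over all 24 libraries, the filter filterByExpr (minimum count 10, minimum total 15), and Benjamini-Hochberg adjustment over 20147 genes. A gene was called at an adjusted p under 0.05. The common biological coefficient of variation was 4.63%. The fit was tested on simulated data with the same spread for every gene and no deviations shared between libraries. That test therefore does not cover the spread between the replicates here, and nothing is read from it. No pair of replicates agreed within sampling noise, with a mean chi-square per gene of 2.16 to 25.7.

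Same-numbered libraries deviated together for all 3 replicate numbers in 2 comparisons, over 13570 genes. Their deviations correlated at 0.65, 0.26 and 0.37 between 2 µM UNC0638 and DMSO, and at 0.16, 0.15 and 0.46 between SUV39H1 hairpin 4 and scrambled. The pairing there comes from these values and not from the labels. Every other comparison held a value below 0, but some of its pairs could still deviate together. The values were 0.56, -0.02 and 0.56 between 4 µM UNC0638 and DMSO, and 0.51, -0.05 and 0.32 between the doses. Between scrambled and DMSO cells they were 0.36, -0.28 and 0.65.

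The members and gene lists were chosen with earlier results of these data known. From each list at most the 2 called genes with the smallest p in each comparison were named, with the same genes repeated in other comparisons. The genes most like a member were the 5 with the highest Pearson r, printed for EGR1 and the 3 most abundant members by mean CPM. Alternatives were RLE scaling, library totals (chosen after the data were seen), no low-count filter, a replicate block, DESeq2 1.42.0, the compared libraries alone, and each replicate left out. Some genes of the lists are counted in them but not reported here by name.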

Additional observations from a re-analysis of the deposited data

How the results depend on the processing

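Of 1198 refits of a member's log2 fold change, 41 moved by more than the replicate spread and none of the called values changed sign. Of 1560 refits of named list genes, 61 lost their call. Fitting only the compared libraries gave 1993 genes called at 4 µM UNC0638 against DMSO (4012 with all libraries), 717 at 2 µM (1444), 236 between the doses (371) and 1 between the G9a hairpins (2), with fewer libraries behind the spread. Members called were 1 at 2 µM (2) and 3 in scrambled against DMSO (5) in that fit. At 2 µM DESeq2 called 1 member, and no low-count filter and the replicate block each called 4. Without the filter 11 genes were called between the G9a hairpins. With 1 replicate left out, genes called ranged from 995 to 2197 at 2 µM, the highest without DMSO replicate 1, from 215 to 276 between the doses and from 0 to 2 between the G9a hairpins. Members called ranged from 1 to 3 at 2 µM, 0 to 2 between the doses, 0 to 1 between the G9a hairpins, 3 to 5 between the SUV39H1 hairpins and 3 to 5 in scrambled against DMSO. The cause of these shifts was not tested. Outside 2 µM against DMSO and SUV39H1 hairpin 4 against scrambled, same-numbered libraries deviated together for some replicate numbers at most. There the replicate block added calls for JUN with G9a hairpin 3 (0.11) and EGR3 between the SUV39H1 hairpins (-0.99). The calls of EGR1 and FOS against their own control held in all 12 alternatives for the 4 hairpins and 4 µM UNC0638. Depth limits EGR3 most, at 4 to 44 counts a library.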

Other observations

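The genes whose levels were most like those of EGR2 were chosen after their values were seen and lie outside the naming rule. They were IFI16, a DNA sensor induced by interferon (Pearson r = 0.96 over 24 libraries, with each arm centred on its mean), NCOA7 (0.96), HERC5, an interferon-induced ligase (0.95), SDCBP (0.95) and IFI44 (0.95). The libraries fall into groups and share controls, so these values are a description. IFI16 averaged 389 ± 9.44 CPM with SUV39H1 hairpin 2 and 174 ± 1.27 CPM with SUV39H1 hairpin 4. It averaged 102 ± 4.06 and 104 ± 2.77 CPM with G9a hairpins 2 and 3, against 89.4 ± 5.53 CPM in scrambled cells. In the inhibitor arm IFI16 averaged 139 ± 11.9 CPM in DMSO cells, 209 ± 7.30 CPM at 2 µM UNC0638 and 271 ± 12.7 CPM at 4 µM. IFI44, another gene induced by interferon, averaged 32.9 ± 0.708 and 3.85 ± 0.160 CPM with SUV39H1 hairpins 2 and 4 and 0.727 ± 0.0491 and 0.701 ± 0.1202 CPM with G9a hairpins 2 and 3, against 1.04 ± 0.0663 CPM in scrambled cells. For FOS the likest genes were SIRPB2, a surface receptor of myeloid cells, and MAFG, a small MAF factor (0.98 each).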
